A study of Mus musculus with 16 samples.

Results

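Lipid droplet and fatty acid uptake genes are described here in mouse dendritic cells exposed to high salt, to LPS or to both. The 10 genes are Hilpda, Plin2, Dgat1, Dgat2, Pnpla2, G0s2, Lpl, Cd36, Fabp4 and Fabp5, out of 19272 genes that have a probe set of their own on the array. The probe set of each gene was chosen by its mean over all 16 arrays, the highest being taken, which mattered only for Fabp5 with its 2 probe sets. That choice used no group label, but the genes were picked with earlier results of these data known. The counts below therefore describe these genes and support nothing beyond them.

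Bone marrow of C57BL/6 mice, cultured in GM-CSF (10 ng/mL), yielded the cells, and each culture was measured on 1 array. Cells of the 290 group were raised at 290 mOsm/L, and those of the 450 group at 450 mOsm/L, reached by NaCl added from day 3 onwards. All were collected on day 7 and plated for 6 h, and the groups named 290 with LPS and 450 with LPS received LPS (10 ng/mL) during those hours. LPS is a bacterial cell wall lipid that activates Tlr4. Mouse numbers 1 to 4 in the labels recur in each group, which gives 4 arrays a group, and no group was free of GM-CSF. Ages of the mice are not stated in the labels used here. Values are log2 expression from the authors' RMA normalization, and a change is a difference of group means with its standard error (SE) from limma. Calls rest on an adjusted p (Benjamini-Hochberg over the 10236 genes tested) below 0.05.

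Lipid droplets are stores of triglyceride and sterol ester wrapped in a phospholipid layer and coat proteins. Fatty acids reach a myeloid cell through lipoprotein breakdown at its surface and through membrane receptors, and carrier proteins bind them in the cytosol. Acyltransferases then build triglyceride, and lipases release fatty acids from it again under the control of small inhibitor proteins. Droplets are known to accumulate in macrophages and dendritic cells during inflammation and low oxygen.

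All 10 genes passed the filter on low values, which asked for at least 4 arrays above 6.83, the median of all values. Of these, 8 (all but Dgat2 and G0s2) lay above that level on all 16 arrays. G0s2 passed mainly through the LPS groups, where it was high, so its call for LPS was favoured by the filter. Array medians lay between 6.78 and 6.93, and arrays of 1 group correlated with r from 0.988 to 0.996 across genes. Of 12 dendritic cell markers 11 were in the table, and Itgax, Cd74 and H2-Aa were at 12.13, 13.60 and 13.29 at 290 mOsm. Cd209a (6.16), Flt3 (6.34) and Zbtb46 (6.80) had means below 6.83 there. Of the 10 tested, salt raised 2 and lowered 1 without LPS (Itgax, -0.22), and raised 2 and lowered 2 with LPS (Itgax, -0.23, and Flt3, -1.02). Over all genes tested, salt raised 20.6% and lowered 23.7% without LPS, and raised 16.8% and lowered 21.8% with it. Macrophage markers were bright too, with Csf1r at 13.04 and C1qb at 12.97. Salt lowered 6 of 11 of them and raised 2 without LPS, and lowered 7 and raised 1 with LPS. The mean level of these 11 ranged from 10.86 to 10.98 at 290, 10.55 to 10.68 at 450, 11.12 to 11.21 at 290 with LPS and 10.75 to 10.88 at 450 with LPS. Of 6 adipocyte markers in the table, 5 had means below 6.83 at 290 mOsm, among them Adipoq at 4.49 and Lep at 4.92. The mean level of 12 neutrophil markers lay between 9.97 and 10.48 on the 290 mOsm arrays and between 6.74 and 6.97 on the 450 mOsm arrays. With LPS these ranges were 10.07 to 10.53 and 7.56 to 7.77. All 12 neutrophil markers were called lower with salt without LPS and 11 of 12 with LPS. Of the 12, 8 had means below 6.83 at 450 mOsm and 7 at 450 mOsm with LPS, against 0 in both 290 mOsm groups. Calls of such markers as lower were favoured by the filter. The 8 mast cell and basophil markers had a mean level of 6.75 to 7.46 at 290 and 5.87 to 6.01 at 450 mOsm. With LPS it was 7.45 to 8.15 and 6.52 to 6.65. Of the 6 tested, salt lowered 6 without LPS, and lowered 3 and raised 1 with it. At 450 mOsm 7 of the 8 had means below 6.83, against 3 at 290 mOsm. The part of these cells in the salt differences below was not tested. In such bulk RNA, fewer cells of a type and less RNA per cell cannot be told apart.

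Hilpda encodes a small droplet protein that binds and inhibits the lipase Pnpla2, and it is known as a target of hypoxia-inducible factors. At 290 mOsm its log2 values were 7.97, 7.83, 7.68 and 7.70 in mice 1 to 4. At 450 mOsm they were 6.94, 7.04, 7.25 and 7.19, all below the arrays at 290 mOsm. With LPS at 290 mOsm the values were 7.40, 7.40, 7.30 and 7.41, also below the untreated arrays. In 450 mOsm cells with LPS they reached 9.84, 9.36, 9.31 and 9.51, above every array of the other groups. None of the 4 groups overlapped another. Salt alone lowered Hilpda 1.61-fold (log2 -0.69 ± 0.098 SE, n = 4 mice per group, adjusted p = 2.39e-05), and LPS alone lowered it 1.33-fold (-0.41 ± 0.098, adjusted p = 0.000966). Together they raised it 3.27-fold over untreated cells (1.71 ± 0.098, adjusted p = 1.67e-11). In the presence of LPS, salt raised it 4.36-fold (2.12 ± 0.098, adjusted p = 2.12e-11). LPS raised it 5.28-fold in the 450 mOsm cells (2.40 ± 0.098, adjusted p = 1.62e-13). The fall with LPS at 290 mOsm shrank to -0.25 under cyclic loess normalization (adjusted p = 0.0294).

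Hilpda was also the gene with the strongest dependence of the LPS response on salt among the 10. The LPS effect of each mouse was -0.57, -0.43, -0.38 and -0.28 at 290 mOsm, and 2.90, 2.32, 2.06 and 2.32 at 450 mOsm. Every mouse thus changed direction, and the interaction was 2.82 ± 0.14 (adjusted p = 4.85e-10). The 3 tested genes with the most similar pattern, by the root mean square difference of values centred on each gene's mean over the 16 arrays, were Il19 (0.33), Bnip3 (0.33) and Ankrd37 (0.39), against a standard deviation of 0.94 for Hilpda itself. Bnip3, a mitochondrial protein of mitophagy, had group means of 8.55 at 290, 9.01 at 290 with LPS, 8.29 at 450 and 10.50 at 450 with LPS. Il19, a cytokine of the IL-10 family, had 5.65, 5.92, 5.73 and 7.78 in the same order, so only its last group lay above 6.83. Ankrd37 had 7.17, 7.47, 7.24 and 8.84. All 3 were highest at 450 with LPS, as Hilpda was, but their means rose with LPS at 290 mOsm, where Hilpda fell. With salt alone the mean was lower for Bnip3, as for Hilpda, but not for Il19 or Ankrd37.

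Promoter sequence was at hand for 5 of the 10 genes, Hilpda with 2 start sites, in RefSeq windows of build GRCm38.p6. The 250 bases before each start were searched on both strands for ACGTG, the core of the hypoxia response element, AGGTCA, a nuclear receptor hexamer, and TGGAAA, the core of the tonicity element bound by Nfat5. These letters occur in 16.6%, 14.0% and 18.6% of all 32851 windows of that length, and the motifs do not overlap in the members. All matches in these windows are shown, without selection by call. Hilpda, Plin2, G0s2 and Cd36 were called in the salt comparison with LPS, 2 in each direction, but so were 8 of all 10 genes. Over all genes tested, 16.8% were called higher and 21.8% lower there. A link of the letters to these calls was not tested. Capitals mark the match, which reads TGACCT or TTTCCA where it is on the other strand. Each line is 30 bases, read along the gene's own strand.
Hilpda, ACGTG starting 43 bases before its second start site, chr6:29272571-29272600, plus strand: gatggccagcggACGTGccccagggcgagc
Plin2, AGGTCA 218 bases before the start, chr4:86670260-86670289, minus strand: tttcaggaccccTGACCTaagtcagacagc
G0s2, TGGAAA 85 bases before the start, chr1:193273256-193273285, minus strand: tcccgttcttccTTTCCAcccctccccacc
Cd36, AGGTCA 228 bases before the start, chr5:17836107-17836136, minus strand: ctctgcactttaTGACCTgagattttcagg
Cd36, TGGAAA 129 bases before the start, chr5:17836008-17836037, minus strand: taacaattacaaTGGAAAacaaagtataga
The Hilpda match lies after the first of its 2 annotated start sites. The window before that first site and the window of Pnpla2 held none of the 3 motifs. A match describes letters in a window, not a bound site.

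**Figure D1:**
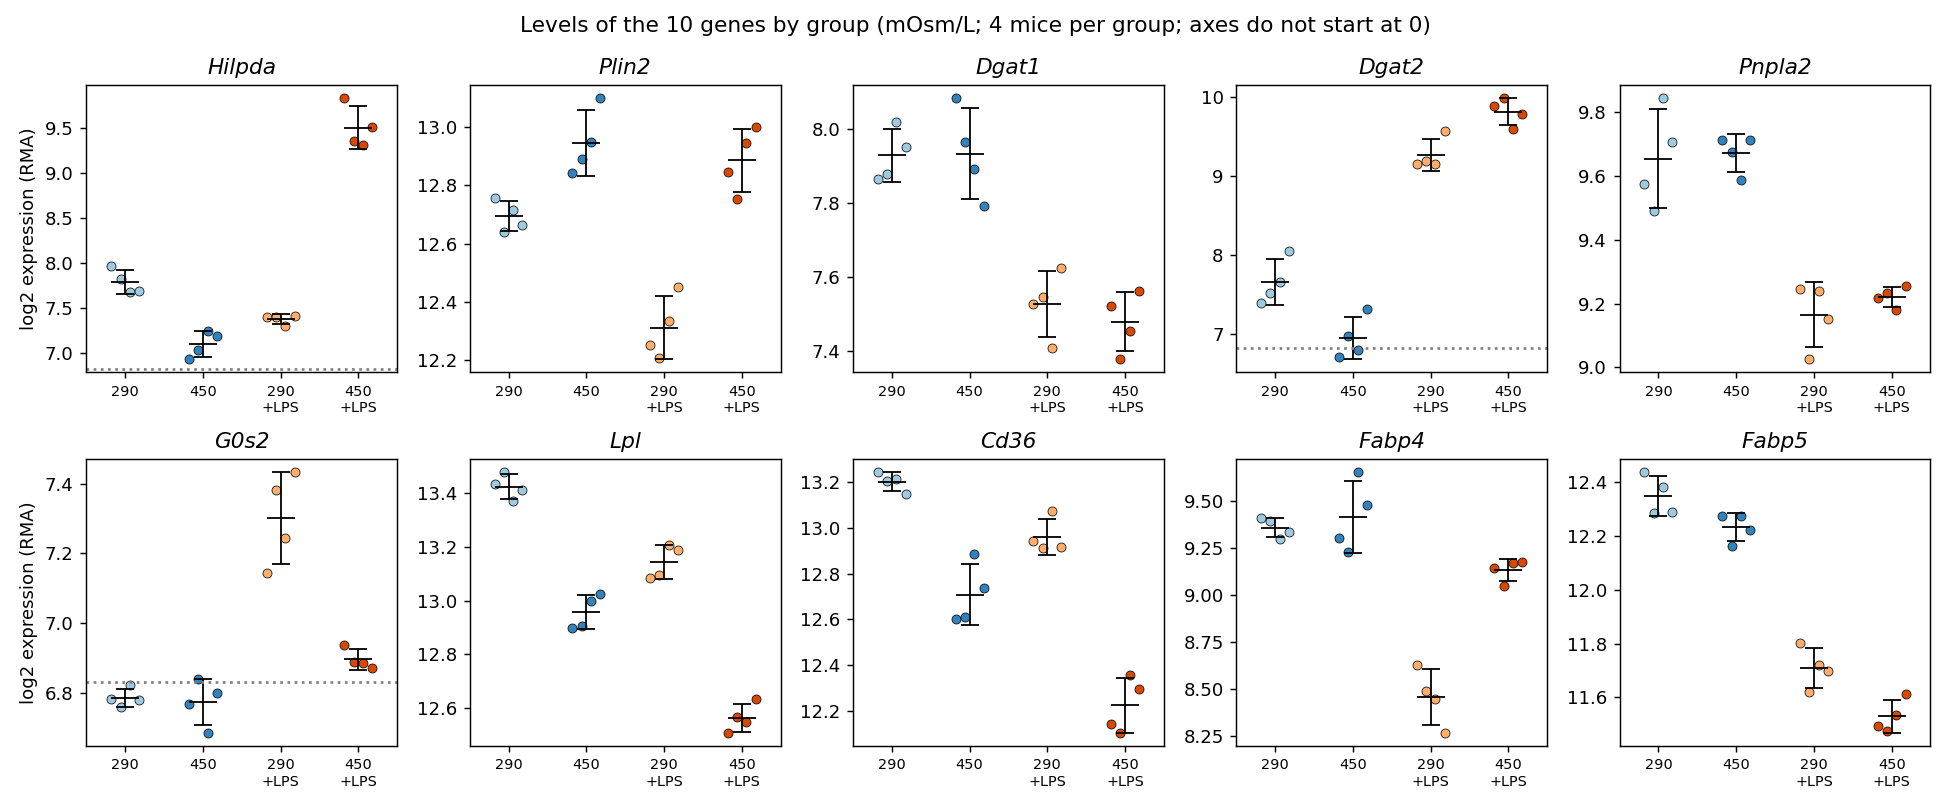
Log2 expression (RMA) of the 10 genes on each array, by medium osmolarity and LPS. Points are the 4 mice of a group, in order of mouse number, with the mean and SD as bars, and a dotted line, in panels that reach it, marks the filter level of 6.83. Vertical axes differ and do not start at 0. Hilpda stood apart in the 450 with LPS group (9.31 to 9.84), Dgat2 in both LPS groups, and G0s2 in the 290 with LPS group (7.14 to 7.43).

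Plin2, which coats lipid droplets and shields their triglyceride, rose with salt with or without LPS. Its log2 values were 12.76, 12.64, 12.72 and 12.67 at 290 mOsm and 12.84, 12.89, 12.95 and 13.10 at 450 mOsm. With LPS they were 12.25, 12.21, 12.34 and 12.45 at 290 mOsm and 12.85, 12.75, 12.94 and 13.00 at 450 mOsm. The arrays of 290 with LPS were the lowest, the high-salt groups overlapped each other, and the 290 and 450 with LPS groups touched. Salt raised Plin2 1.19-fold without LPS (0.25 ± 0.068, adjusted p = 0.00681) and 1.49-fold with it (0.57 ± 0.068, adjusted p = 2.94e-06). LPS lowered it 1.30-fold at 290 mOsm (-0.38 ± 0.068, adjusted p = 5.73e-05). At 450 mOsm the LPS difference was -0.06 with a 95% interval from -0.20 to 0.08 (adjusted p = 0.452). Quantile normalization of the deposited values gave -0.20 there (adjusted p = 0.00947). The LPS effect differed between the osmolarities by 0.32 ± 0.096 (adjusted p = 0.0217), higher in 4 of 4 mice. That call was lost without mouse 1, 2 or 3 (adjusted p = 0.156, 0.0603 and 0.113) and under quantile normalization (0.062).

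The 2 enzymes that add the last acyl chain to triglyceride moved apart. Dgat2 had log2 values of 7.40, 7.52, 7.66 and 8.06 at 290 mOsm and 6.72, 6.98, 6.80 and 7.32 at 450 mOsm, where 2 arrays lay below 6.83. After LPS they were 9.15, 9.19, 9.15 and 9.57 at 290 mOsm and 9.89, 9.99, 9.59 and 9.79 at 450 mOsm. No groups overlapped, and salt shifted the gene down without LPS and up with it. LPS raised Dgat2 3.04-fold at 290 mOsm (1.61 ± 0.14, adjusted p = 1.04e-08) and 7.26-fold at 450 mOsm (2.86 ± 0.14, adjusted p = 2.87e-12). Salt lowered it 1.63-fold without LPS (-0.70 ± 0.14, adjusted p = 0.000769) and raised it 1.46-fold with LPS (0.55 ± 0.14, adjusted p = 0.00551). The latter call was lost without mouse 2 (0.47, adjusted p = 0.0631). The interaction was 1.25 ± 0.20 (adjusted p = 0.000202), with a larger LPS effect at 450 mOsm in 4 of 4 mice. The most similar patterns were those of Tnfaip3, an inhibitor of NF-kB signalling, at a root mean square difference of 0.24, Mxd1 (0.26) and Stx11 (0.26), against a standard deviation of 1.18 for Dgat2.

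Dgat1 ranged from 7.87 to 8.02 at 290 mOsm and from 7.79 to 8.08 at 450 mOsm. With LPS it ranged from 7.41 to 7.62 and from 7.38 to 7.56, below every array without LPS. LPS lowered it 1.32-fold at 290 mOsm (-0.40 ± 0.065, adjusted p = 2.20e-05) and 1.37-fold at 450 mOsm (-0.45 ± 0.065, adjusted p = 5.24e-06). Under cyclic loess the first value was -0.25. For salt the change was 0.00 (95% interval -0.13 to 0.14) without LPS and -0.05 (-0.19 to 0.09) with it, adjusted p = 0.961 and 0.584.

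Pnpla2 encodes the lipase that starts triglyceride breakdown, and G0s2 encodes, like Hilpda, a protein that inhibits it. Pnpla2 ranged from 9.49 to 9.84 at 290 mOsm, from 9.59 to 9.71 at 450 mOsm, from 9.03 to 9.24 at 290 mOsm with LPS and from 9.18 to 9.26 at 450 mOsm with LPS. Arrays with and without LPS did not overlap, whereas those of the 2 osmolarities did. LPS lowered it 1.40-fold at 290 mOsm (-0.49 ± 0.068, adjusted p = 3.67e-06) and 1.37-fold at 450 mOsm (-0.45 ± 0.068, adjusted p = 9.81e-06). The salt differences were 0.02 (95% interval -0.13 to 0.16) without LPS and 0.06 (-0.09 to 0.20) with it.

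G0s2 was dim throughout. Its log2 values were 6.78, 6.76, 6.82 and 6.78 at 290 mOsm and 6.77, 6.84, 6.68 and 6.80 at 450 mOsm, at or near the filter level. LPS brought them to 7.14, 7.38, 7.25 and 7.43 at 290 mOsm and only to 6.94, 6.89, 6.88 and 6.87 at 450 mOsm. The 290 with LPS group was thus the highest and overlapped no other. LPS raised G0s2 1.43-fold at 290 mOsm (0.52 ± 0.058, adjusted p = 2.10e-07). At 450 mOsm the change of 0.12 ± 0.058 did not pass (adjusted p = 0.0651), though it passed under cyclic loess (0.20, adjusted p = 0.00298), quantile normalization (0.17, adjusted p = 0.0127), median centring and a fit of the 2 groups alone. It also passed without mouse 1 of the 290 with LPS group (adjusted p = 0.0366), without mouse 4 of it (0.0471) or without mouse 2 of the 450 group (0.0483). In the presence of LPS, salt lowered it 1.33-fold (-0.41 ± 0.058, adjusted p = 2.33e-05), where Hilpda rose. The interaction was -0.39 ± 0.082 (adjusted p = 0.00177), lower in 4 of 4 mice.

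**Figure D2:**
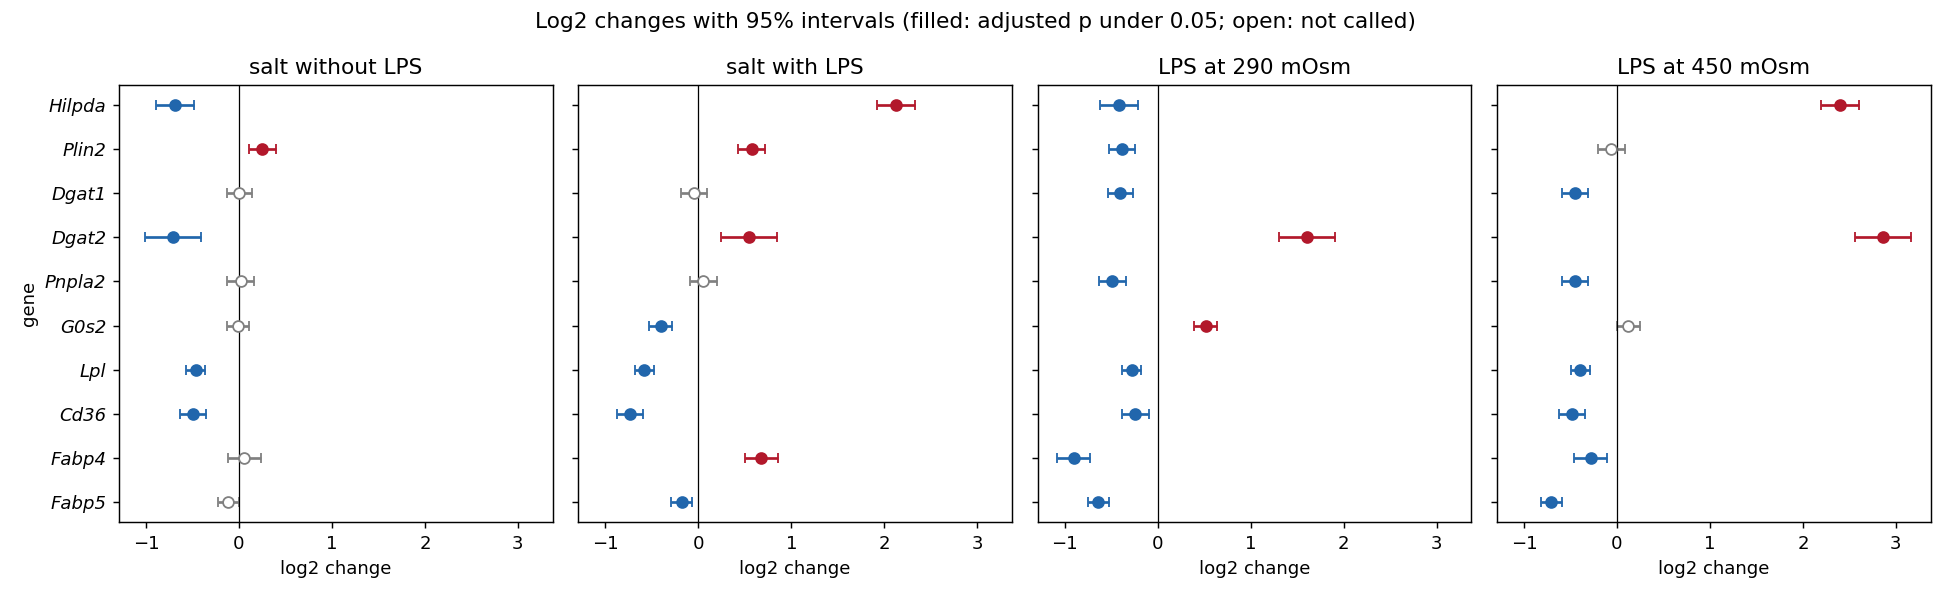
Log2 change of each gene in the 4 pairwise comparisons, with 95% intervals from limma. Red and blue filled points were called higher and lower, and open grey points were not called. Salt with LPS moved Hilpda up by 2.12 and Cd36 down by 0.74. LPS at 290 mOsm lowered 8 of the 10 genes, where 47.1% of all genes tested were called lower.

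Lpl and Cd36 stand at the entry of fatty acids into the cell. Lpl encodes the secreted lipase that frees fatty acids from lipoproteins, and Cd36 a receptor for long-chain fatty acids and oxidized lipoproteins. Lpl had log2 values of 13.44, 13.48, 13.37 and 13.41 at 290 mOsm and 12.90, 12.91, 13.00 and 13.02 at 450 mOsm. With LPS the values were 13.09, 13.10, 13.21 and 13.19 at 290 mOsm and 12.51, 12.57, 12.55 and 12.63 at 450 mOsm. The groups fell in the order 290, 290 with LPS, 450, 450 with LPS, and no neighbours overlapped. Salt lowered Lpl 1.38-fold without LPS (-0.47 ± 0.049, adjusted p = 7.55e-07) and 1.49-fold with LPS (-0.58 ± 0.049, adjusted p = 5.45e-08). LPS lowered it by 0.28 ± 0.049 on the log2 scale at 290 mOsm and by 0.39 ± 0.049 at 450 mOsm (adjusted p = 4.80e-05 and 8.56e-07).

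Cd36 followed the same order of groups. Its log2 values were 13.25, 13.20, 13.21 and 13.15 at 290 mOsm and 12.60, 12.61, 12.88 and 12.74 at 450 mOsm. With LPS they were 12.94, 12.91, 13.07 and 12.91 at 290 mOsm and 12.14, 12.10, 12.35 and 12.30 at 450 mOsm, the lowest group, and again no groups overlapped. Salt lowered Cd36 1.41-fold without LPS (-0.49 ± 0.069, adjusted p = 1.92e-05) and 1.66-fold with LPS (-0.74 ± 0.069, adjusted p = 2.00e-07). LPS lowered it by 0.24 ± 0.069 at 290 mOsm and by 0.48 ± 0.069 at 450 mOsm (adjusted p = 0.00406 and 4.51e-06). Whether LPS acted differently on Cd36 at the 2 osmolarities depended on the fit. The interaction of -0.24 ± 0.097 did not pass (adjusted p = 0.0905), but passed with the mouse as a fixed replicate block (adjusted p = 0.0378) and under cyclic loess (0.0488). With the mouse as a random block it did not pass (adjusted p = 0.0657). For Lpl it was -0.11 ± 0.069 (adjusted p = 0.283). Over the 11 macrophage markers the median salt change was -0.17 without LPS and -0.16 with it, smaller than the falls of Lpl and Cd36. Larger falls than these medians were those of Adgre1 (-0.51 without LPS and -0.68 with it), Mertk (-0.64 and -1.12) and Mrc1 (-0.62 and -0.72). Siglec1 rose (0.75 and 1.02). The part of macrophage content in the falls of Lpl and Cd36 was not tested. With salt and LPS together, Cd36 stood 1.97-fold and Lpl 1.82-fold below untreated cells (-0.98 ± 0.069 and -0.86 ± 0.049). Both genes lay near the highest value of the table, 14.32, where differences may be compressed. Lpl was itself among the 3 nearest patterns to Cd36 (root mean square difference 0.092), beside the glycosyltransferase gene B4galt6 (0.091) and Anxa3 (0.10), against a standard deviation of 0.37 for Cd36.

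Fabp4 and Fabp5 encode cytosolic fatty acid carriers that are close relatives, so probes may read both. Fabp4 had log2 values of 9.41, 9.39, 9.30 and 9.34 at 290 mOsm and 9.30, 9.23, 9.66 and 9.48 at 450 mOsm, which overlapped. LPS took them to 8.63, 8.49, 8.44 and 8.26 at 290 mOsm, the lowest group, but only to 9.14, 9.05, 9.17 and 9.18 at 450 mOsm. LPS lowered Fabp4 1.87-fold at 290 mOsm (-0.90 ± 0.083, adjusted p = 1.53e-08) and 1.22-fold at 450 mOsm (-0.28 ± 0.083, adjusted p = 0.00513). The latter was -0.14 under cyclic loess and did not pass (adjusted p = 0.137). With LPS, salt raised Fabp4 1.60-fold (0.68 ± 0.083, adjusted p = 4.28e-06), and without LPS the difference was 0.06 (95% interval -0.12 to 0.23, adjusted p = 0.588). The interaction was 0.62 ± 0.12 (adjusted p = 0.000803), higher in 4 of 4 mice. The nearest patterns were those of Fndc3b (0.13), Galnt6 (0.14) and Lrp12 (0.14), against a standard deviation of 0.40 for Fabp4.

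Fabp5 ranged from 12.29 to 12.44 at 290 mOsm, from 12.17 to 12.28 at 450 mOsm, from 11.62 to 11.80 at 290 mOsm with LPS and from 11.48 to 11.61 at 450 mOsm with LPS. LPS lowered it 1.56-fold at 290 mOsm (-0.64 ± 0.053, adjusted p = 3.81e-09) and 1.63-fold at 450 mOsm (-0.71 ± 0.053, adjusted p = 9.31e-10), with no overlap. Salt differences were small. Without LPS it was -0.12 ± 0.053 (adjusted p = 0.0864), and the other Fabp5 probe set gave -0.15 ± 0.054 (adjusted p = 0.0295). With LPS salt lowered Fabp5 by 0.18 ± 0.053 (adjusted p = 0.012), a call lost without mouse 1 (adjusted p = 0.105) or mouse 3 (0.0588).

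**Figure D3:**
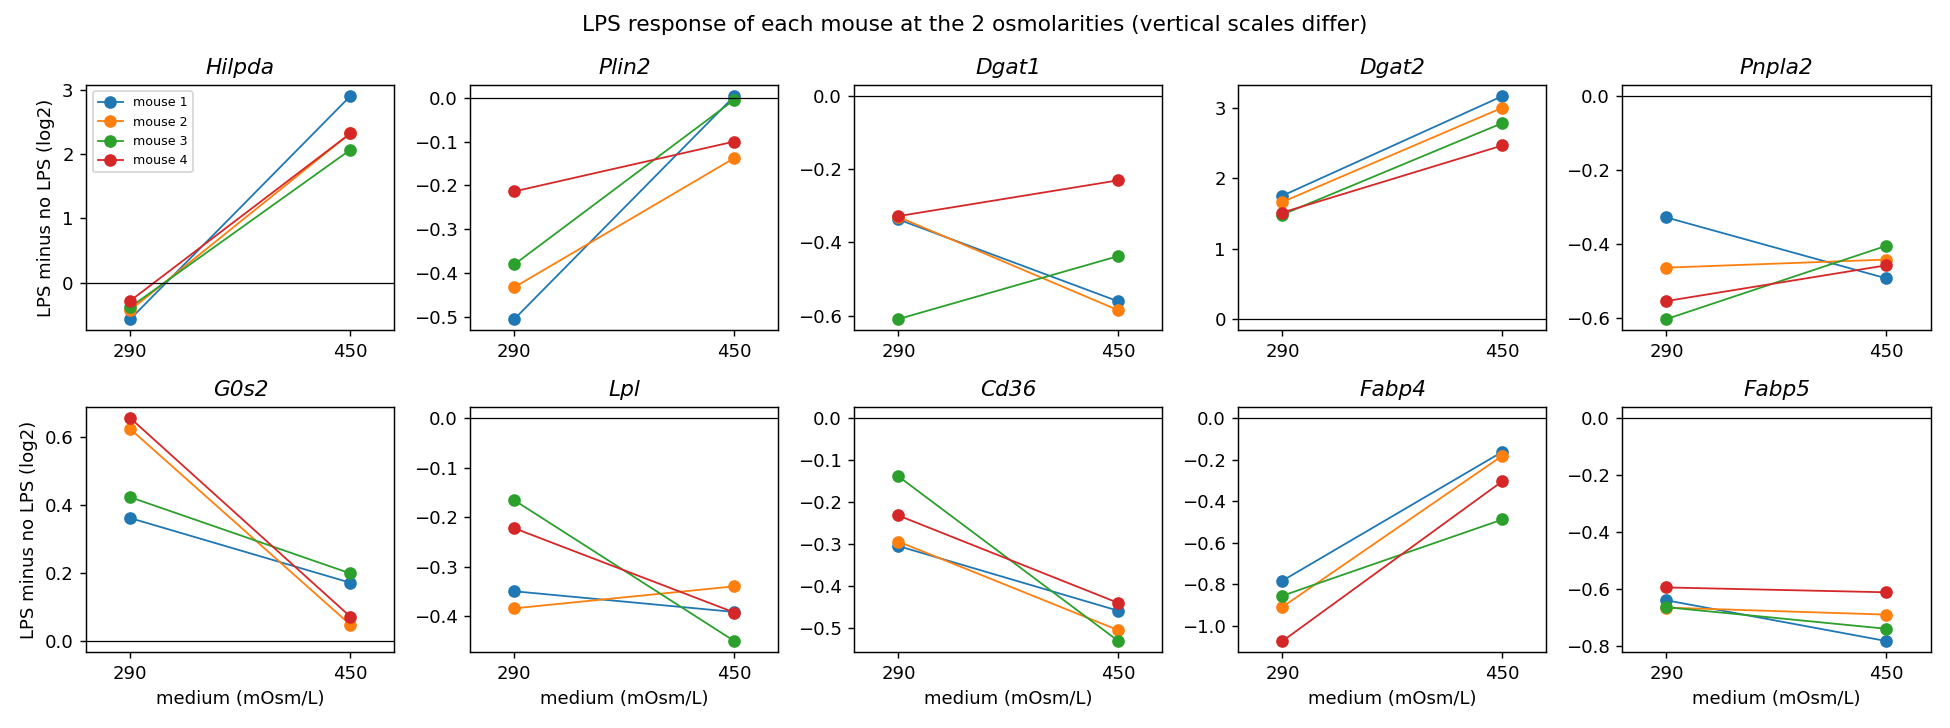
LPS response (log2 value with LPS minus without) of each of the 4 mice at 290 and 450 mOsm/L, 1 panel per gene with its own vertical scale. Lines join the values of 1 mouse. In every mouse Hilpda turned from a fall of 0.28 to 0.57 into a rise of 2.06 to 2.90, while the lines of Fabp5 stayed between -0.59 and -0.78.

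Set against all genes, the 10 were called as follows. Salt without LPS raised 1 of the 10 (Plin2) and lowered 4 (Hilpda, Dgat2, Lpl and Cd36), where 20.6% of all genes tested were called higher and 23.7% lower. The median change was -0.06 over the 10 and 0.00 over all genes. Salt with LPS raised 4 (Hilpda, Plin2, Dgat2 and Fabp4) and lowered 4 (G0s2, Lpl, Cd36 and Fabp5), against 16.8% and 21.8% of all genes. LPS at 290 mOsm raised 2 (Dgat2 and G0s2) and lowered 8, against 26.4% and 47.1%, with medians of -0.39 over the 10 and -0.11 over all genes. At 450 mOsm LPS raised 2 (Hilpda and Dgat2) and lowered 6, against 26.4% and 45.3%, with medians of -0.34 and -0.09. The interaction was called higher for 4 (Hilpda, Plin2, Dgat2 and Fabp4) and lower for 1 (G0s2), against 10.7% and 10.4%. In the comparison of salt plus LPS with untreated cells, 9 of the 10 were called, against 78.3% of all genes, and G0s2 was not (0.11, adjusted p = 0.0885). LPS alone and salt alone differed for all 10, against 72.8%. Comparisons that share arrays are not independent. Cyclic loess moved the median of all genes for LPS at 290 mOsm to 0.02 and balanced its calls at 3857 higher and 3736 lower, from 2702 and 4819. For salt without LPS, median centring gave 1335 higher and 3047 lower, from 2104 and 2426. The directions of called genes among the 10 were the same under both.

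Other genes of lipid handling were read from 5 lists. Among droplet coat, biogenesis and lipolysis genes, 20 of 22 were in the table and 12 were tested. Salt without LPS raised 3 of these 12 and lowered 2, against 20.6% and 23.7% of all genes. Cideb, a droplet fusion protein, rose by 0.54 ± 0.077 from a mean of 6.63, below the filter level, and the hormone-sensitive lipase gene Lipe by 0.50 ± 0.067. Of the Cideb group means only that at 450 mOsm without LPS (7.17) lay above the filter level, so this call of Cideb was favoured by the filter. Abhd5, the coactivator of Pnpla2, fell by 0.44 ± 0.048. With LPS salt raised 2 (Hsd17b11 by 0.49 ± 0.060 and Cideb by 0.38 ± 0.077) and lowered 5, led by the monoglyceride lipase gene Mgll (-0.53 ± 0.090) and Abhd5 (-0.45 ± 0.048). Over all genes, 16.8% were called higher and 21.8% lower there. Both Cideb means with LPS (6.33 at 290 and 6.71 at 450 mOsm) lay below the filter level. LPS raised 3 and lowered 7 at 290 mOsm, against 26.4% and 47.1% of all genes. At 450 mOsm it raised 3 and lowered 8, against 26.4% and 45.3%. The coat gene Plin3 fell at 290 and 450 mOsm (-1.06 ± 0.066 and -0.98 ± 0.066), as did Abhd5 (-0.78 ± 0.048 and -0.80 ± 0.048). Lipe rose by 0.87 ± 0.067 and 0.35 ± 0.067. Plin1, Plin4 and Plin5 were below the filter, with group means from 6.42 to 6.82.

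Of 22 genes of glycerolipid synthesis and fatty acid activation, 13 were tested. Salt raised 0 and lowered 2 of them without LPS, the acyltransferase gene Agpat3 (-0.62 ± 0.048) and the acyl-CoA synthetase gene Acsbg1 (-0.42 ± 0.057). Of the Acsbg1 group means only that at 290 mOsm without LPS (7.07) lay above the filter level, and that at 450 mOsm was 6.65. This call of Acsbg1 was therefore favoured by the filter. With LPS salt raised 2, Acsl4 (0.41) and Gpd1 (0.24), and lowered 2, Lpin2 (-0.34) and Agpat3 (-0.22). Over all genes, salt raised 20.6% and lowered 23.7% without LPS, and raised 16.8% and lowered 21.8% with it. LPS raised 3 and lowered 6 at 290 mOsm, against 26.4% and 47.1% of all genes. At 450 mOsm LPS raised 2 and lowered 4, against 26.4% and 45.3%. The phosphatidate phosphatase gene Lpin1 fell with LPS (-3.17 ± 0.12 at 290 and -3.40 ± 0.12 at 450 mOsm), to means of 6.08 and 6.12 that lie below the filter level. Its means without LPS were 9.25 and 9.53. Lpin1 thus passed through the groups without LPS, and its calls for LPS were favoured by the filter. Acsl5 rose by 0.80 and 0.59.

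The list of fatty acid and lipoprotein uptake had 14 of 22 genes tested. Salt raised 3 and lowered 3 without LPS, against 20.6% and 23.7% of all genes. With LPS it raised 3 and lowered 0, against 16.8% and 21.8%. The caveolin gene Cav1 rose by 0.82 ± 0.11 with salt without LPS, and its interaction was -0.85 ± 0.15 (adjusted p = 0.000474). With LPS, salt raised Fabp3 by 0.37 ± 0.084 and the lipoprotein receptor gene Lrp1 by 0.32 ± 0.082. The fatty acid transport protein gene Slc27a1 fell by 0.50 ± 0.090 without LPS and rose by 0.25 ± 0.090 with LPS (adjusted p = 0.0347), with an interaction of 0.76 ± 0.13 (adjusted p = 0.00031). At both osmolarities LPS raised 5 and lowered 7, against 26.4% and 47.1% of all genes at 290 mOsm and 26.4% and 45.3% at 450 mOsm. With LPS, Cav1 rose by 3.64 ± 0.11 and 2.80 ± 0.11, and the carrier gene Fabp3, a relative of Fabp4 and Fabp5, by 2.79 ± 0.084 and 3.02 ± 0.084, while Slc27a1 fell (-1.77 ± 0.090 and -1.02 ± 0.090). Olr1, a receptor for oxidized lipoprotein, was lower with salt without LPS (-1.17) and rose with LPS by 0.98 at 290 and 1.92 at 450 mOsm, an interaction of 0.94.

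Of 18 fatty acid oxidation genes tested, LPS raised 2 and lowered 15 at 290 mOsm and raised 2 and lowered 16 at 450 mOsm. Over all genes, 26.4% were called higher at each osmolarity, and 47.1% and 45.3% lower. The medians of the 18 were -0.60 and -0.57 against -0.11 and -0.09 over all genes. The carnitine acetyltransferase gene Crat fell at 290 and 450 mOsm (-1.53 and -1.82), as did Hadh (-1.42 and -1.64) and the medium-chain dehydrogenase gene Acadm (-1.28 at both). Eci2 and Acadl were the 2 that rose. Salt raised 6 and lowered 4 without LPS, against 20.6% higher and 23.7% lower over all genes. With LPS salt raised 3 and lowered 4, against 16.8% and 21.8%. The medians of -0.02 and -0.01 thus stood over members that went both ways, such as Crat (0.34) and Hadh (-0.36) without LPS, and Slc25a20 (0.37) and Hadh (-0.58) with it.

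Of the transcription factors of lipid storage and hypoxia, 14 of 18 were tested. LPS lowered 9 and raised 3 at 290 mOsm, against 47.1% and 26.4% of all genes. At 450 mOsm it lowered 10 and raised 4, against 45.3% and 26.4%. Pparg, the nuclear receptor that drives fat storage genes such as Fabp4, fell at both osmolarities (-2.07 ± 0.087 and -1.70 ± 0.087), as did Cebpa (-1.91 and -1.97). Hif1a, the oxygen-regulated factor, rose with LPS by 0.86 ± 0.078 and 1.28 ± 0.078. Salt raised it by 0.58 ± 0.078 without LPS and by 1.00 ± 0.078 with LPS, and its interaction was 0.42 ± 0.11 (adjusted p = 0.00919). The group means of Hif1a were 10.90 at 290, 11.48 at 450, 11.76 at 290 with LPS and 12.77 at 450 with LPS. With salt alone and with LPS alone Hif1a was higher and Hilpda lower than in untreated cells, and both were highest at 450 with LPS. These are RNA levels, and any link between Hif1a and Hilpda was not tested. Salt lowered Pparg by 0.45 ± 0.087 without LPS, and with LPS its difference of -0.08 did not pass (adjusted p = 0.511). Among all 14, salt raised 4 and lowered 3 without LPS, against 20.6% and 23.7% of all genes. With LPS it raised 5 and lowered 5, against 16.8% and 21.8%.

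**Figure D4:**
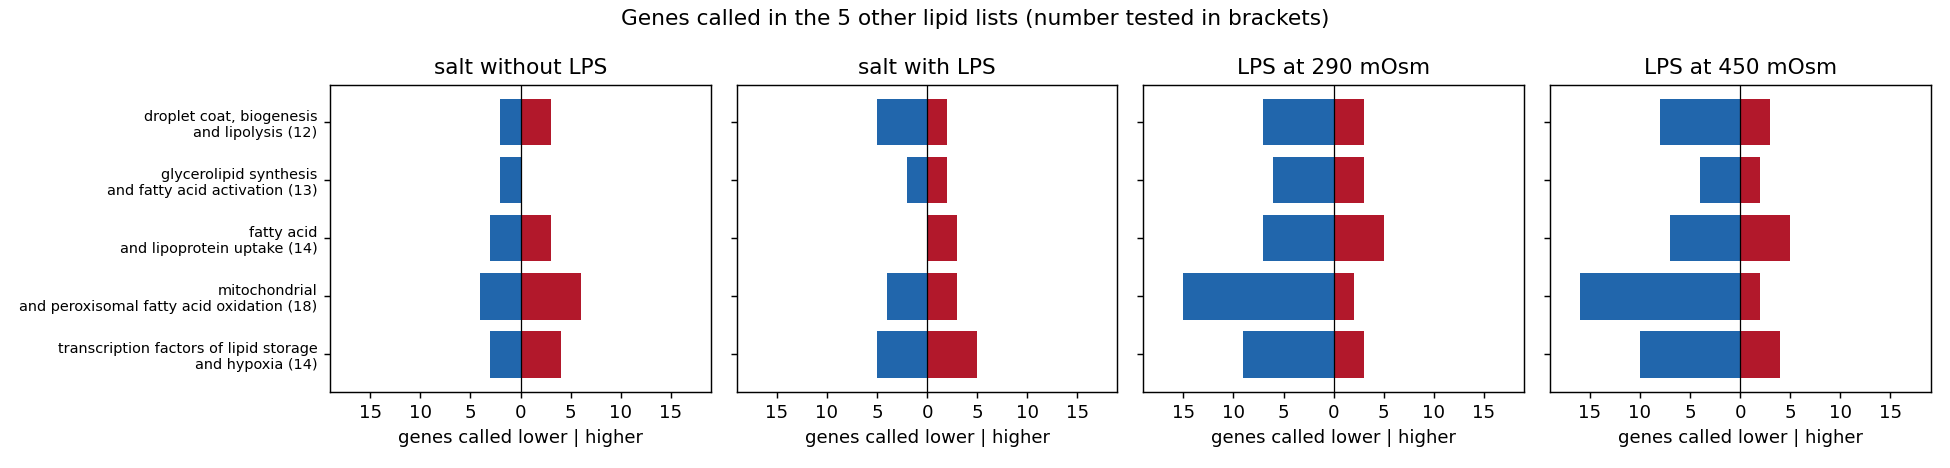
Number of genes called higher (red, to the right) and lower (blue, to the left) in the 5 other lipid lists, by comparison, with the number tested in brackets. Of 18 fatty acid oxidation genes, 15 and 16 were called lower with LPS, where 47.1% and 45.3% of all genes were, and 6 were called higher and 4 lower with salt without LPS, against 20.6% and 23.7%.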

How the data were processed

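The deposited table holds log2 expression for 22549 probe sets on 16 arrays, made by the authors with RMA in the oligo package, per the submitters' processing notes. For versions, filters and build, none is given in the sources used here. The method scales arrays to each other, so a shift of most transcripts would be removed. The platform annotation gave 1 symbol for 20646 probe sets, and 20596 matched RefSeq by Entrez identifier. Genes with at least 4 arrays above 6.83 were kept, each as its probe set with the highest mean. In limma 3.58.1 (R 4.3.3), 1 model with 4 group means and 12 residual degrees of freedom gave all contrasts, two-sided, and was tested on simulated data. Figures used matplotlib.

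Members and lists were chosen with earlier results of these data known. From each list and comparison, up to 3 called genes of largest change and up to 2 in the other direction could be named, and any transcription factor. Not all of these are printed. Cd209a, Flt3, Zbtb46, Adgre1, Mertk, Mrc1, Siglec1, Itgax, Cd74, H2-Aa, Csf1r, C1qb, Adipoq, Lep, Plin1, Plin4 and Plin5 were named outside that rule, as were second values of a gene named in 1 comparison. Nearest patterns were taken for the 4 members with the widest range of group means.

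Replicate numbers pair the arrays, since the labels give 1 mouse per number. Over 24 pairs of arrays from 1 mouse, deviations from the group mean had a median r of 0.095, from -0.15 to 0.43. Over 72 pairs from different mice the median r was -0.035, from -0.41 to 0.39, so the ranges overlapped. The number of arrays limits the precision. Alternatives were other filters, normalizations, variance models, the mouse as a block, only the groups compared, and leaving out each mouse and array.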

Additional observations from a re-analysis of the deposited data

Results flagged for a closer look

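The LPS effect differed between 450 and 290 mOsm for 5 of the 10 genes by limma's interaction test: Hilpda (2.82 on the log2 scale), Dgat2 (1.25), Fabp4 (0.62), Plin2 (0.32) and G0s2 (-0.39). Over all genes tested, 10.7% were called higher and 10.4% lower by that test. Only for Hilpda did every mouse move one way at 290 mOsm and the opposite way at 450 mOsm. The Plin2 value did not pass without mouse 1, 2 or 3.

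Of 40 combinations of gene and group, 2 held an array far from the other 3, and chance gives about 1 in 20. Hilpda in mouse 3 of the 290 with LPS group was 7.30 against 7.40 to 7.41. Dgat2 in mouse 4 of that group was 9.57 against 9.15 to 9.19.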

How the results depend on the processing

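The number of genes called stayed within 1.5 times in every alternative, ranging from 5 to 6 for salt without LPS, 7 to 8 for salt with LPS, 9 to 10 for LPS at 290 mOsm, 8 to 10 for LPS at 450 mOsm and 4 to 6 for the interaction. Of 50 changes (10 genes in 5 comparisons), 36 kept direction and call in every alternative. The stricter filter removed G0s2. With the mouse as a fixed replicate block the interaction of Cd36 passed (-0.24, adjusted p = 0.0378), with a random block it did not (adjusted p = 0.0657), and neither block changed another call. Fabp5 and salt without LPS also passed with the mean of its probe sets (-0.13, adjusted p = 0.0496), median centring (-0.17, adjusted p = 0.0256) and a trended robust variance (adjusted p = 0.0491), and with the other probe set, an alternative chosen after seeing the data. The cause of each change was not tested.

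Changes of sign occurred only among differences that were called neither before nor after. For salt without LPS, Dgat1 was -0.0052 under cyclic loess and -0.051 under median centring, Pnpla2 was -0.038 under median centring, and with array weights G0s2 was 0.011 and Fabp4 -0.017. Leaving out mice or arrays gave -0.066 to 0.059 for Dgat1, -0.037 to 0.11 for Pnpla2, -0.044 to 0.029 for G0s2 and -0.043 to 0.13 for Fabp4. For the interaction it gave -0.13 to 0.015 for Dgat1 and -0.025 to 0.11 for Pnpla2. G0s2 lay close to the filter level, and Lpl, Cd36 and Plin2 lay within the top of the scale, whose highest value was 14.32. Whether signal limited their changes was not tested.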
